A study of Homo sapiens with 8 samples.

Results

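The genes described here are 9 interferon-induced genes of human cells: the membrane proteins IFITM1, IFITM2 and IFITM3, the antiviral effectors ISG15, ISG20 and IFI6, and the transcription factors IRF1, IRF7 and IRF9. They were picked out by gene symbol from a list of interferon-responsive genes, drawn up with earlier results of these data known, and all 9 were among the 9339 genes for which a fold change was given. The data came from THP-1, a human monocytic leukaemia cell line kept in RPMI-1640 with serum, with ALKBH5 knocked down (written A5-KD in the labels) or as control. ALKBH5 is the enzyme that removes the methyl group of N6-methyladenosine (m6A) from RNA. The knockdown and the control each had 2 libraries of ribosome footprints and 2 of input RNA, 8 libraries in 4 groups. The sources used here name no interferon treatment and do not say how the knockdown was made. The control status of the input libraries rests on their titles, because their genotype label reads only "input". Nothing says whether the 2 replicates were separate cultures, so the errors measure the spread between these libraries, which may be technical.

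Interferons are secreted proteins that put cells into an antiviral state. Type I interferon binds IFNAR1 and IFNAR2, the kinases JAK1 and TYK2 phosphorylate STAT proteins, and these join IRF9 in a complex that binds the interferon-stimulated response element (ISRE) in promoters. Interferon gamma acts through STAT dimers at another element, the gamma-activated site (GAS), and IRF1 is a well-known target. Monocytes are strong responders to both, and many interferon-induced genes keep a basal level without added interferon.

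The promoters of the genes were searched for the ISRE and the GAS. The readout below is translation relative to RNA, so these sequences are background and do not bear on the values. Of the 9 genes, 7 had an entry in the RefSeq promoter sequences (GRCh38.p14). IFITM2 and IRF7 had none and were not searched. In each entry the 250 bases before the annotated start were searched on both strands. The ISRE core was searched as GAAA, 2 bases of any kind and GAAAC, and the GAS as TTC, 3 bases of any kind and GAA. The ISRE core was found in 5 of the 7 promoters, against 0.644% of all 35116 promoters (226 of them). The GAS letters were found in 3 of the 7, against 6.57% of all promoters. IRF1 and IRF9 had GAS letters and no ISRE core. The last 130 bases before the start of IFITM1 and IFITM3, which are neighbouring paralogs, are shown whole. In their alignment 92 of 144 columns, gaps included, held identical bases (63.9%). Whether this exceeds the identity of unrelated promoters was not tested. For the other genes the matches are shown with 20 bases on each side. Each sequence is written on the strand of the gene, and capitals mark every match to either motif. Matches to the ISRE core overlap in ISG15, so they form 1 run of capitals there.
IFITM1, chr11:313910-314039, plus strand: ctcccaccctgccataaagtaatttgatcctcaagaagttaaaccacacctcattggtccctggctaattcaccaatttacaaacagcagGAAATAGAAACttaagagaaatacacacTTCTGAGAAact
IFITM3, chr11:320861-320990, minus strand: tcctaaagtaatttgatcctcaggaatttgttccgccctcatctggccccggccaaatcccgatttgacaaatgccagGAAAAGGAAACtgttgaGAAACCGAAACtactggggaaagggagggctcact
ISG15, chr1:1013364-1013420, plus strand: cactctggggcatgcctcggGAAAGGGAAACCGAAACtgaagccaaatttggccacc
ISG20, chr15:88638927-88638977, plus strand: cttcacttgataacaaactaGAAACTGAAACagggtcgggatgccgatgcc
IFI6, chr1:27672255-27672368, minus strand: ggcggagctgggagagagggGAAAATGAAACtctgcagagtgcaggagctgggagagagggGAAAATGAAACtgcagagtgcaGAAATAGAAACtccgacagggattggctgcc
IRF1, chr5:132490869-132490917, minus strand: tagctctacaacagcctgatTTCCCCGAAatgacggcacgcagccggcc
IRF9, chr14:24161182-24161230, plus strand: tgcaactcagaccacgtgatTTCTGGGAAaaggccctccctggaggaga

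The ISRE core occurred once in IFITM1 and ISG20, in 2 places in IFITM3 and ISG15, and in 3 places in IFI6. GAS letters occurred once each in IFITM1, IRF1 and IRF9, that of IFITM1 beginning 12 bases before its annotated start. The ISG20 window lies inside the annotated span of that gene, which has an earlier start. A match shows only that these letters are present, not that a factor binds there.

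The values came from 1 table of the authors with a single row per gene over all 8 libraries, so no level per library was analysed here. Translational efficiency is footprint abundance relative to input RNA, and the log2 fold change is its change between knockdown and control. Which of the conditions served as reference is not stated in it. Signs are therefore given as deposited, and a negative value may be lower or higher efficiency in the knockdown. The mean signal, a mean over libraries after scaling for library size, is given as a measure of how much data stands behind a gene. It is not per length and is not compared between genes as a level. Read depth per library cannot be had from it and is unknown. An adjusted p was given only to the 648 genes whose mean signal reached 155.3.

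The target of the knockdown could not be used to check the labels. ALKBH5 had 1.94 ± 2.30 (SE) on the log2 scale in the authors' deposited table, from a mean signal of only 4.85, and this is a value of translation, not of RNA level. The monocyte label was set against marker genes, of which 13 of 15 myeloid ones had a value. Lysozyme (LYZ) had a mean signal of 2942 in the authors' deposited table, the neutrophil elastase gene ELANE 538.5 and the Fc receptor chain FCER1G 509.3. These were the 3 highest of the 13, whose median was 110.7. Others had little signal, such as CD33 at 22.4, CSF1R at 10.9 and ITGAM, the lowest, at 4.55. The remaining 2 without a value were CD14, a defining monocyte marker, and MPO. A value was available for 4 of 12 markers of lymphoid cells, for 0 of 10 of red cells and megakaryocytes, and for 1 of 10 of epithelium and fibroblasts. Among these, the authors' deposited table gave a mean signal of 77.8 for CD4, which monocytes also express, 15.2 for NKG7, 4.33 for KRT8 and 2.59 for IL7R. These values overlap those of the lower myeloid markers. Mean signal is also not per length, so it does not rank these markers by expression. The mean signals alone therefore do not settle the label.

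No call was made among the interferon-induced genes in the authors' test (riborex, Wald test with Benjamini-Hochberg adjustment). Of the 9 genes, 5 had enough signal for an adjusted p, and 0 of these 5 were called at 0.05, where the background was 1.54% (10 of 648 genes). At an unadjusted p under 0.05, 1 of the 9 passed, IFITM2, against 0.707% of all genes. IFITM2 is among the 5 with an adjusted p, so 1 of these 5 passed, against 8.80% of the 648. By sign, 7 genes were negative and 2 positive, and their median on the log2 scale was -0.12. Over all 9339 genes 51.9% were negative and the median was -0.02, and over the 648 genes 68.4% were negative and the median was -0.12.

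**Figure D1:**
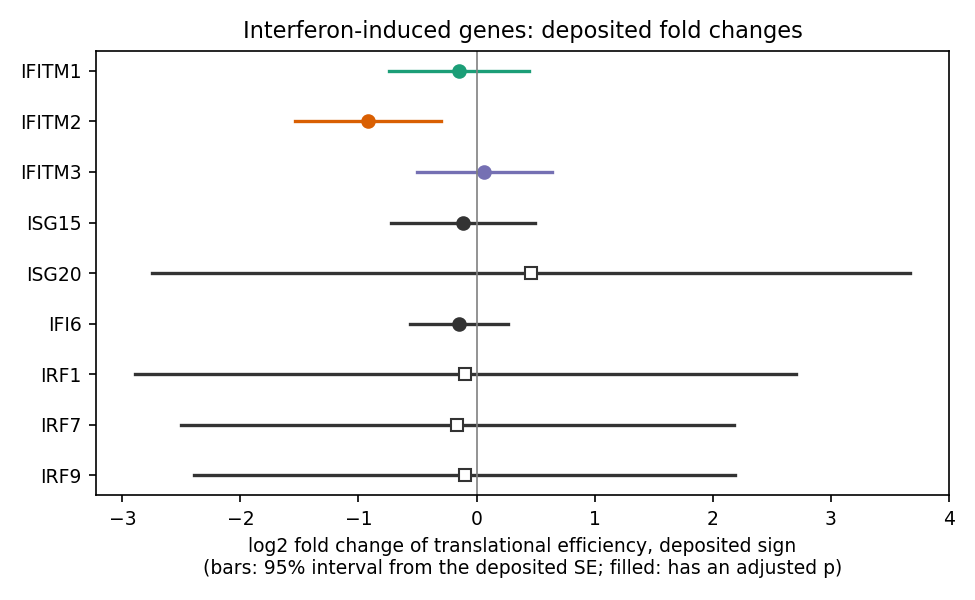
Log2 fold change of translational efficiency (x axis, deposited sign) of the 9 genes, with bars for the 95% interval from the deposited standard error. Filled circles mark the 5 genes with an adjusted p and open squares the 4 without. The interval of IFITM2 lies below 0 and those of the other 8 genes include 0.

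IFITM2 had the largest deviation from 0 among the 5 genes with an adjusted p. The IFITM proteins are small membrane proteins that hinder the fusion of viruses with the cell membrane, and IFITM2 and IFITM3 act mostly in endosomes. In the authors' deposited table IFITM2 had a log2 fold change of -0.92 ± 0.32 (SE) with an unadjusted p of 0.0036, and its adjusted p of 0.13 did not pass. That is a ratio of 0.528 between the conditions, with a 95% interval from 0.344 to 0.812 computed from the deposited error. By unadjusted p it stood at place 18 of 9339 genes, and by fold change it was the fifth most negative of the 648. Among the 383 genes within 1.5-fold of its mean signal of 219.0, 2 had a more negative value, 8 had an unadjusted p under 0.05 and 0 were called. At its error, a change of 1.07 log2 units would have given the statistic of the weakest called gene.

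The paralogs IFITM1 and IFITM3 lay near 0. IFITM1, which acts mostly at the cell surface, had -0.15 ± 0.30 (adjusted p = 0.9986) at a mean signal of 368.0 in the authors' deposited table. IFITM3, the best-studied restriction factor against influenza virus, had 0.07 ± 0.29 (adjusted p = 0.9986) at a mean signal of 480.5 in the authors' deposited table. Their 95% intervals ran from -0.74 to 0.44 and from -0.51 to 0.64, so a change of 1 log2 unit lies outside both. These p-values do not show that the paralogs were unchanged, only that larger changes fall outside the intervals.

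Whether IFITM2 differed from its paralogs depends on how the 3 pairs are allowed for. With the deposited errors taken as independent, the log2 fold change of IFITM2 minus that of IFITM3 was -0.99, with a 95% interval from -1.83 to -0.14. Widened to cover all 3 pairs together, the interval ran from -2.02 to 0.04 and included 0. IFITM1 minus IFITM2 was 0.77 (-0.08 to 1.63), and IFITM1 minus IFITM3 was -0.22 (-1.04 to 0.61). The pairs were compared after the values had been seen, so these intervals describe the values and support no call. Genes measured in the same libraries, and paralogs that can share reads, need not have independent errors, and that dependence was not tested.

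The IFITM genes lie side by side on chromosome 11 (GRCh38.p14): IFITM2 from 307816 to 309395, IFITM1 from 314040 to 315272 and IFITM3 from 319676 to 320860, a stretch of 13.0 kb in all. They are close in sequence, and 9 pseudogenes named for IFITM3 are annotated elsewhere in the genome. The span of IFITM3 overlaps the antisense RNA gene IFITM3-AS1 (318460 to 333689). Footprints were selected at 25 to 40 nucleotides, so reads from identical stretches cannot be assigned to 1 paralog by sequence. How the authors' counting treated shared reads, and whether it used strand, is not stated in the labels or the file. The split of reads between IFITM1, IFITM2 and IFITM3 is uncertain in that respect, and its part in the value of IFITM2 was not tested.

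**Figure D2:**
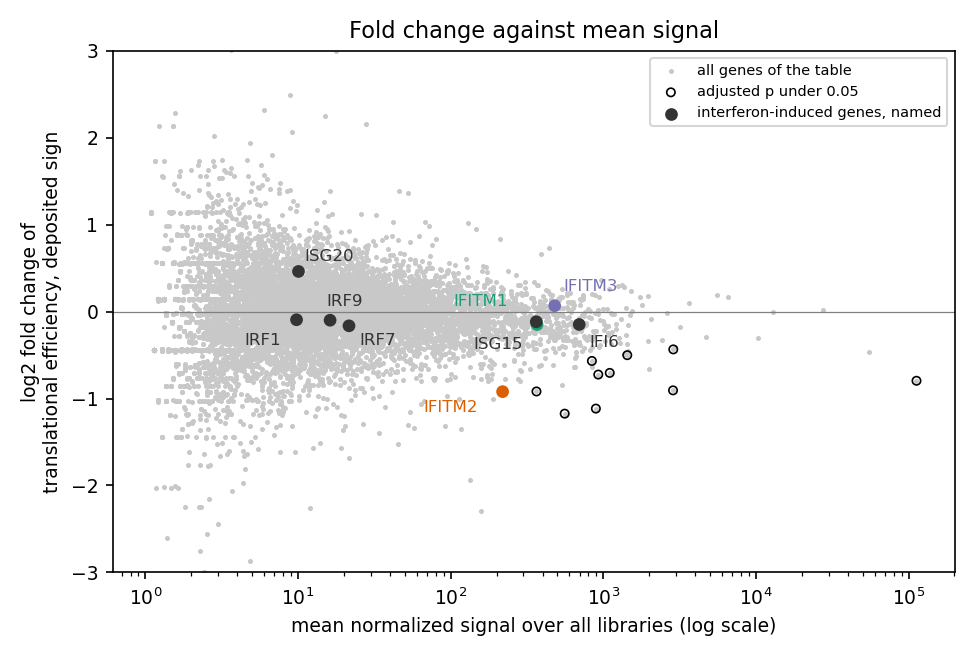
Log2 fold change of translational efficiency (y axis, deposited sign) against mean normalized signal (x axis, log scale) for all genes, of which 14 lie beyond the axis limit of 3 in either direction. Grey points are genes, black rings the 10 called genes, and labelled points the interferon-induced genes. IFITM2 lies at -0.92, at the level of some called genes but at lower signal than any of them.

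ISG15 and IFI6, both strongly interferon-induced, also lay near 0. ISG15 encodes a ubiquitin-like protein that is attached to other proteins and is also secreted. It had a log2 fold change of -0.12 ± 0.31 (adjusted p = 0.9986) at a mean signal of 364.0 in the authors' deposited table, and its 95% bounds were -0.73 and 0.49. IFI6 encodes a small membrane protein that counters apoptosis and the replication of flaviviruses. Its value was -0.15 ± 0.21 (adjusted p = 0.9986) at a mean signal of 695.5 in the authors' deposited table, and its bounds were -0.56 and 0.26. IFI6 thus had the narrowest interval of the 9 genes: a ratio of 0.902 between conditions, with bounds of 0.678 and 1.20. ISG15 spans 1013497 to 1014540 and IFI6 27666064 to 27672192, both on chromosome 1.

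The transcription factors and ISG20 had too little signal for an adjusted p. IRF9 is the DNA-binding partner in the complex formed with STAT proteins, IRF7 drives the production of type I interferon, and IRF1 activates interferon and antigen presentation genes. IRF9 had -0.10 ± 1.17 (unadjusted p = 0.93) at a mean signal of 16.2 in the authors' deposited table. IRF7 had -0.16 ± 1.19 (unadjusted p = 0.89) at 21.6, and IRF1 -0.09 ± 1.43 (unadjusted p = 0.95) at 9.78, in the authors' deposited table. The values are close to 0, but the narrowest of the intervals, that of IRF9, ran from -2.39 to 2.19, so changes of 1 log2 unit in either direction were not detectable at this signal.

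ISG20, an exonuclease that degrades single-stranded RNA, had the largest positive value of the 9 genes and also the largest error. The authors' deposited table gave 0.46 ± 1.64 (unadjusted p = 0.78) at a mean signal of 10.1, and the 95% bounds were -2.75 and 3.67. In ratio the bounds are 0.149 and 12.8, so the sign of ISG20 carries no weight. On the genome IRF7 lies on chromosome 11 (612555 to 615950), 291.7 kb from the IFITM genes. IRF1 lies on chromosome 5 (132481609 to 132490773), IRF9 on chromosome 14 (24161265 to 24166565) and ISG20 on chromosome 15 (88635632 to 88656483).

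The errors of the genes followed their signal, with differences among genes of like signal. For the 5 genes with an adjusted p the standard error lay between 0.21 and 0.32, and for the other 4 between 1.17 and 1.64. IFITM3 had a larger error than 84.9% of the 199 genes within 1.5-fold of its signal, whose median was 0.23. For ISG15 that share was 79.2% of 269 genes and for IFITM1 75.3% of 267, with medians of 0.27 for both sets. IFITM2 had a smaller error than most genes of its signal: 28.7% of the 383 had a lower one, and their median was 0.35. For IFI6 the share was 62.2% of 143 genes. Among the genes of low signal, IRF7 had a larger error than 81.2% of 1690 genes and ISG20 than 74.7% of 2069, while IRF9 and IRF1 exceeded 42.0% of 1850 and 38.3% of 2073. How far the libraries of a group differed for these genes was not analysed here.

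**Figure D3:**
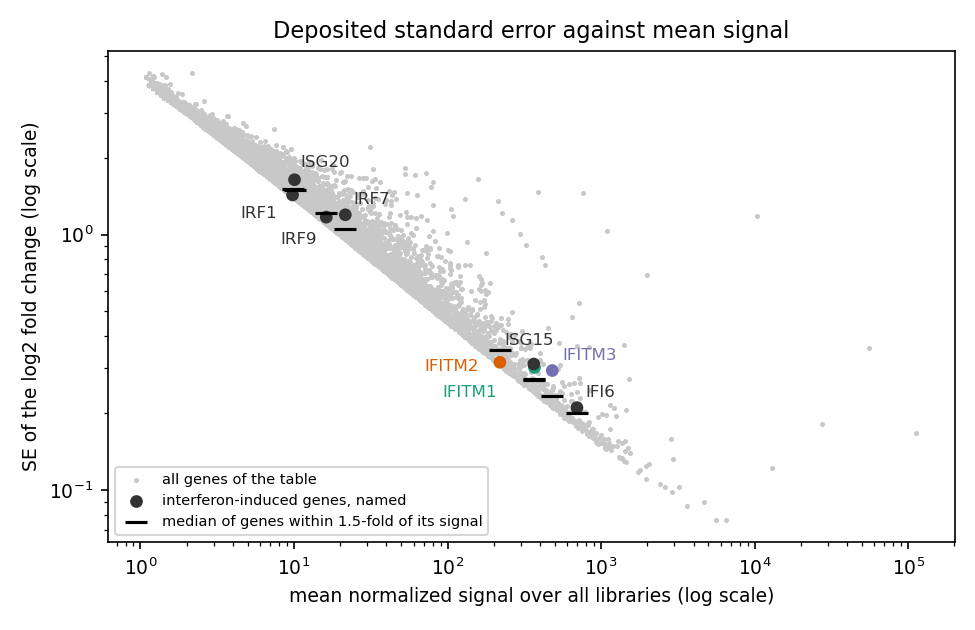
Deposited standard error of the log2 fold change (y axis, log scale) against mean normalized signal (x axis, log scale). Grey points are all genes, labelled points the 9 interferon-induced genes, and short black lines the median error of the genes within 1.5-fold of each one's signal. IFITM3, ISG15 and IFITM1 lie above their lines and IFITM2 below.

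The rest of the interferon pathway was described by 5 lists, in which 64 of 75 genes other than the 9 had a value. Of these 64, 35 were negative and 29 positive, and their median of -0.02 on the log2 scale was equal to that of all genes to 2 decimals. Only 2 had an adjusted p, and 0 were called by the authors' Wald test (background 1.54%). At an unadjusted p under 0.05 the count was also 0 (background 0.707%), the smallest being 0.20 for IRF8. At the deposited standard errors, 5 of the 64 genes, and 10.7% of all genes, could have shown a change of 1 log2 unit at an unadjusted p of 0.05. For the other 59 such a change was not detectable.

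Receptors and JAK-STAT genes had a value for 9 of 9, 6 of them negative and 3 positive, and the median was -0.12. The receptor chains IFNGR1, IFNAR1 and IFNAR2 had -0.11 ± 0.77, -0.22 ± 1.01 and 0.33 ± 1.35 in the authors' deposited table. In none of the 9 would a change of 1 log2 unit have been detectable.

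The other interferon regulatory factors split into 2 negative and 2 positive values around a median of 0.12. IRF8, a factor that directs monocyte development, had enough signal for a test, with 0.34 ± 0.27 (adjusted p = 0.98) at a mean signal of 305.5 in the authors' deposited table. Its 95% interval ran from -0.18 to 0.87. IRF3, which acts directly below the sensors of viral nucleic acid, had -0.26 ± 0.87, and IRF5, active below Toll-like receptors, -0.01 ± 1.06, in the authors' deposited table.

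Nucleic acid sensors and adaptors had a value for 8 of 14 genes, of which 6 were negative, and the median was -0.06. The authors' deposited table gave 0.09 ± 0.51 for TMEM173, the adaptor also called STING, -0.13 ± 0.94 for the Toll-like receptor adaptor MYD88 and -0.02 ± 1.11 for the DNA sensor IFI16.

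Interferon-induced effectors other than those described above had a value for 38 of 42 genes, 19 on either side of 0, and the median was -0.01. BST2 (tetherin), which holds budding viruses at the cell surface, had -0.10 ± 0.25 (adjusted p = 0.9986) at a mean signal of 347.8 in the authors' deposited table. SAMHD1, a nucleotide hydrolase that restricts retroviruses, had -0.04 ± 0.44, and IFI27 -0.11 ± 0.47, in the authors' deposited table. In 34 of these 38 genes a change of 1 log2 unit would not have been detectable.

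The genes that attach ISG15 to proteins or remove it were measured for 5 of 5, with 2 negative, 3 positive and a median of 0.10. UBE2L6, the conjugating enzyme, had -0.19 ± 0.54 in the authors' deposited table, the activating enzyme UBA7 0.10 ± 1.06 and the deconjugating protease USP18 0.13 ± 1.40. ISG15 itself, at -0.12, lay between these values.

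**Figure D4:**
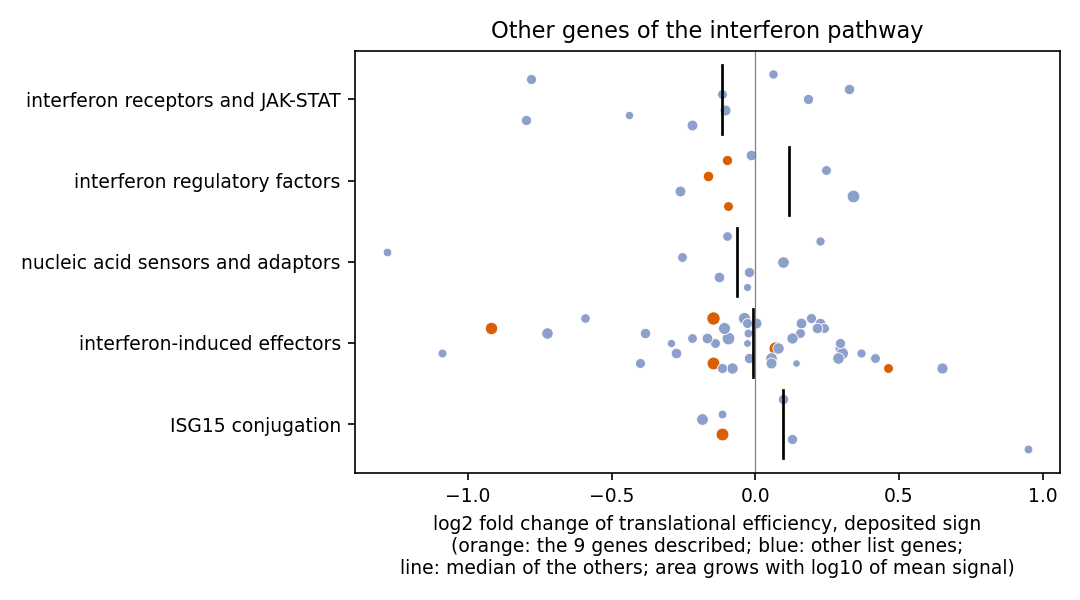
Log2 fold change of translational efficiency (x axis, deposited sign) of the measured genes of 5 interferon pathway lists (rows), where vertical position within a row has no meaning. Orange points are the 9 genes described, blue points the other 64 genes, with area growing with the log10 of mean signal, and black lines the medians of the blue points, from -0.12 to 0.12. IFITM2 is the large orange point at -0.92.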

How the data were processed

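The deposited file is 1 table of 9339 genes with 6 value columns over all 8 libraries of THP-1 footprints and input RNA. Per the file's name, the authors used riborex, a count model of translational efficiency, with the DESeq2 engine. The reference condition and the counting are not stated in the labels or the file. The tools CASAVA, kallisto and HISAT2 2.1.0 and the build hg38 appear, with no role, per the submitters' processing notes. Per the file headers, the values are a mean signal (baseMean), a log2 fold change with its standard error on the log2 scale, a Wald statistic (a score), and a p-value with an adjusted p-value, all as deposited by the authors. The adjusted p was checked to be a Benjamini-Hochberg adjustment over the 648 genes of highest signal, and the statistic to be the fold change over its error.

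Computed from these were 95% intervals (scipy 1.17.1), values among genes within 1.5-fold of a gene's signal, counts by list, and motif matches. The threshold for a call was an adjusted p of 0.05. Names and positions came from GRCh38.p14; 1 list gene was found under another name. The steps were tested on simulated data that took the deposited errors as correct. That checks the computation only and cannot show whether the errors are too wide. No count per library was analysed here, so no new fit over samples was made, replicates could not be left out and depth per library is unknown. The members and lists were chosen with earlier results of these data known. From the pathway lists, 1 gene was left out and is not reported here. Named by rule were the 9 genes, the 3 genes of highest signal in each other list, and ALKBH5. The markers CD33, CSF1R, ITGAM, CD14 and MPO and the genes under the other observations were chosen outside this rule after the values were seen.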

Additional observations from a re-analysis of the deposited data

How the results depend on the processing

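The 9 genes were examined under 5 alternatives: adjustment over all 9339 genes, centring on the median of all genes, a minimum mean signal of 100, and Wald statistics divided by their spread, either over all genes or, chosen after seeing the data, over the 648 genes with an adjusted p. All kept their sign in each alternative that gave a value, and the genes of low signal gave none under the minimum. The fold change of IFITM2 stayed between -0.92 and -0.90. Its adjusted p was 1.00 over all genes, 0.16 after centring and 0.19 with the minimum, so it did not pass in these. Rescaling kept -0.921 but passed IFITM2, with an adjusted p of 9.9e-24 over all genes and 0.012 over the 648. The first rescaling also passed IFI6 at -0.148 (adjusted p = 0.028), so 2 of the 9 genes were called, against 1 with the second. It called 308 genes of the table (47.5%) and the second 35 (5.40%), against 10 as deposited. The first also called 1 regulatory factor outside the 9 genes, IRF8. The spread was 0.28 over all 9339 genes, most of which had too little signal for an adjusted p, and 0.81 over the 648. Because both spreads were under 1, both rescalings shrink the deposited errors, and whether these errors are too wide was not tested. The adjusted p of 9.9e-24 for IFITM2 thus rests on a spread set mostly by genes of lower signal. Its adjusted p of 0.012 rests on the spread of the 648 genes alone. The whole table had 7, 7 and 8 called genes under the first 3 alternatives. No paired analysis was possible because the table has no values per library, and for the same reason no replicate could be left out. At the deposited errors, 4 of the 9 genes, those with mean signals from 9.78 to 21.6, could not show a change of 1 log2 unit.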

Other observations

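The genes that follow were all chosen after their values had been seen. The IFIT proteins bind foreign RNA, and the 4 measured genes lay between -0.22 and 0.00, with standard errors from 0.87 to 3.42. The OAS enzymes make the messenger that activates RNase L, and the 4 measured genes lay between -0.14 and 0.23, with standard errors from 0.71 to 1.51. In the authors' deposited table IFIT3 had 0.00 ± 0.87 at a mean signal of 33.2 and OAS2 0.05 ± 0.71 at 66.6. Of these 8 genes 0 had an unadjusted p under 0.05 in the authors' Wald test, against 0.707% of all genes, and at these errors that count says nothing about the families.

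The kinase TYK2 and the factor STAT2, which act with IRF9 below the type I receptor, were the most negative of the 9 receptor and JAK-STAT genes, with -0.80 ± 1.11 and -0.78 ± 1.18 in the authors' deposited table, and unadjusted p of 0.47 and 0.51. The other 7 genes of that list lay between -0.44 for JAK2 and 0.33 for IFNAR2 in the authors' deposited table. APOBEC3C, a cytidine deaminase, had the smallest unadjusted p of the effectors other than IFITM2, 0.29, with -0.73 ± 0.69 in the authors' deposited table.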
